A study of Homo sapiens with 43 samples.

Results

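Dexamethasone at 0.01 µM was compared with its own ethanol vehicle after 3 days in HMC3 cells, an immortalised human cell line sold as microglial, that is, as macrophages resident in the brain. The comparison uses the 3 libraries labelled with the low dexamethasone dose on day 3 and the 3 labelled as the vehicle of that dose, which is 6 of the 43 libraries of the series. Each library is the total RNA of 1 flask, and all flasks hold the same line in the same growth medium, so the spread between libraries is that between flasks of 1 culture and not between donors. Around this comparison the series holds dexamethasone at 1 µM, hydrocortisone at 0.01 and 10 µM, a vehicle for each dose and untreated medium on day 3, and the same hormone doses on day 6, after 3 days in hormone-free medium. Of these, the values used here are dexamethasone at 0.01 and 1 µM and hydrocortisone at 0.01 µM on day 3, each with 3 libraries of the hormone and 3 of its own vehicle, and dexamethasone at 0.01 µM on day 6, with 3 libraries against the 4 day 6 vehicle libraries, 1 for each dose. The study asked which genes respond to a stress hormone beyond the effect of its alcohol vehicle, and whether the dose matters.

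Glucocorticoids bind the glucocorticoid receptor, a transcription factor encoded by NR3C1 that waits in the cytoplasm in a complex with HSP90 and its co-chaperones. The bound receptor enters the nucleus, where it activates genes by binding DNA as a dimer and represses others, many of them targets of AP-1 and NF-kB. Dexamethasone was made from the structure of hydrocortisone, a natural human glucocorticoid, by adding fluorine, a methyl group and a further double bond in the first ring, and it is the more potent agonist of this receptor. In brain macrophages glucocorticoids are best known for dampening inflammatory genes.

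The libraries differed widely in ribosomal RNA, in both groups. Ribosomal RNA genes took 26.3%, 10.6% and 94.9% of the counts in dexamethasone replicates 1, 2 and 3, against 82.5%, 57.5% and 18% in vehicle replicates 1, 2 and 3. The exact 95% Clopper-Pearson interval, which covers counting error only, was 94.854% to 94.873% in dexamethasone replicate 3. What remained for all other genes was 8954893, 9729620 and 1083367 counts in the dexamethasone libraries, against 3191496, 5436984 and 12821188 in the vehicle libraries. One count was therefore worth 0.491 CPM (the count scaled to library size) in dexamethasone replicate 3 but 0.0583 and 0.0521 CPM in replicates 1 and 2, and low levels in replicate 3 rest on a handful of reads. The main counts below are therefore also given without dexamethasone replicate 3, and without that library and vehicle replicate 1 together. Of the 43 libraries, 7 had over 75% ribosomal RNA, and total counts ran from 7638840 to 24426643.

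**Figure D1:**
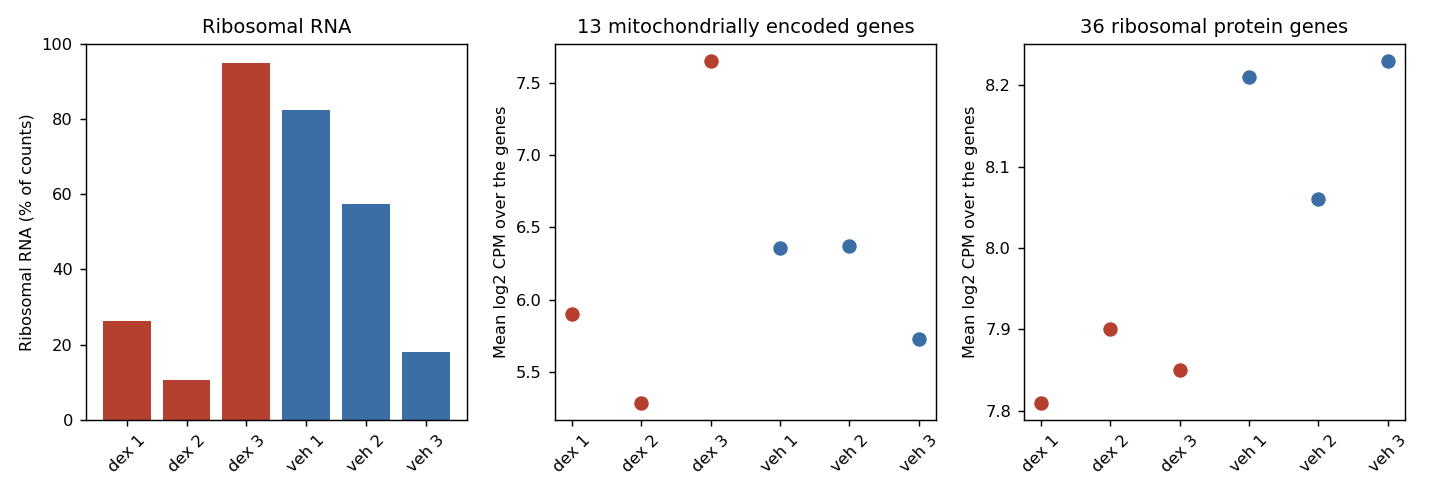
Share of counts from ribosomal RNA genes (left, bars, % of all counts), and mean log2 CPM of the 13 mitochondrially encoded genes (middle) and of 36 ribosomal protein genes (right), in each of the 3 dexamethasone (dex, red) and 3 vehicle (veh, blue) libraries. Dexamethasone replicate 3 stands highest in the ribosomal RNA share and in the mitochondrial level, whereas its ribosomal protein level, 7.85, lies between those of the other dexamethasone libraries.

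Few marker genes of microglia were detected. Of 24 microglial markers fixed for this check, 7 were analysed here, and 3 of them had a median above 1 CPM of the non-ribosomal counts. CSF1R, the receptor for the growth factor on which microglia depend, was at 0.112, 0 and 0 CPM in the dexamethasone libraries and 0.313, 0.184 and 0.234 CPM in the vehicle libraries. TREM2, a lipid-sensing receptor of microglia, was at 0.335, 0.514 and 0 CPM with dexamethasone and 0.313, 0 and 0.312 CPM with vehicle. The summed level of the microglial markers was 78.5 to 98.6 CPM in the dexamethasone libraries and 107.8 to 120.3 CPM in the vehicle libraries. Markers of fibroblasts and pericytes summed to 5097.8 to 6320.1 CPM with dexamethasone and 4829.7 to 5382.1 CPM with vehicle, led by COL1A1, VIM and TAGLN. Endothelial markers summed to 0.447 to 1.44 CPM with dexamethasone and 1.29 to 1.88 CPM with vehicle. In bulk RNA, fewer cells of a type and less RNA per cell cannot be told apart.

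Dexamethasone at 0.01 µM changed 2353 of the 16816 genes tested (14%), 1034 of them higher (6.15%) and 1319 lower (7.84%), by edgeR's quasi-likelihood test with a Benjamini-Hochberg adjusted p below 0.05. At least 2-fold changes were called for 206 genes higher and 216 lower, and the median size of a called change was 0.49 on the log2 scale. The 3 dexamethasone and 3 vehicle libraries did not overlap in CPM for 2130 of the called genes (90.5%), and they did not overlap for 23.5% of all genes tested. Without dexamethasone replicate 3 the test called 1859 genes (11.1%), 840 higher (5%) and 1019 lower (6.06%), of which 1518 were called before. Leaving that library out lost 835 calls and gained 341, and all 2353 genes kept their sign. The larger changes held more often: of the 422 called genes with at least a 2-fold change, 354 were called without replicate 3, 306 without it and vehicle replicate 1 (8.08% of all genes called), and 204 when the fit held only the 6 libraries (5.1% called). Replicate 3 was the highest of the dexamethasone libraries in 578 of the genes called higher (55.9%) and the lowest in 327 of them. It was the lowest in 807 of those called lower (61.2%). The same shares over all genes tested were not worked out, so these values do not show what is particular to the called genes. With the ribosomal share as a covariate the test called 2136 genes, 2014 of them called before in the same direction. With the ribosomal RNA genes removed it called 1866, of which 1697 were called before in the same direction. The part of the RNA composition of replicate 3 in single genes was not tested.

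**Figure D2:**
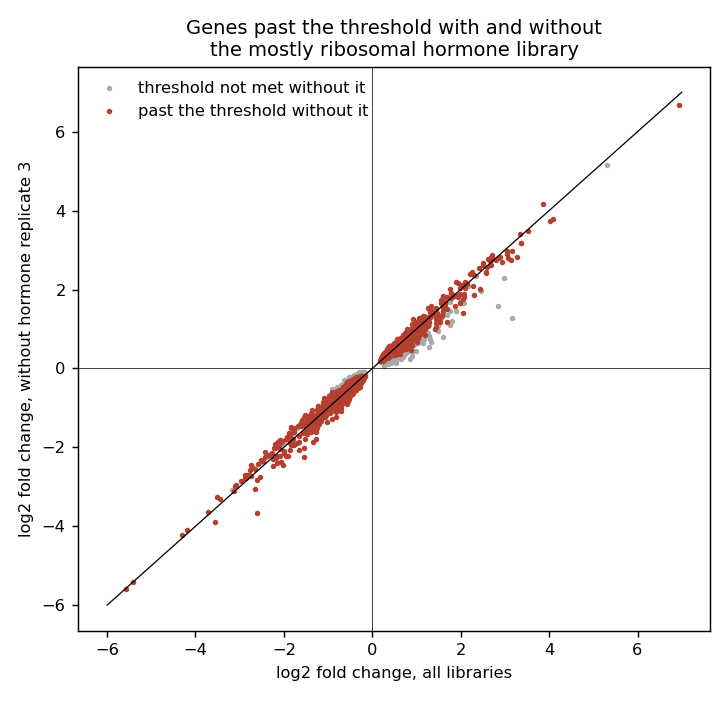
Log2 fold change of each gene past the threshold, with all libraries (horizontal axis) and without dexamethasone replicate 3, the mostly ribosomal library (vertical axis). Red points are the 1518 genes that stayed past the threshold without it and grey points the 835 that did not; the line marks equal values, and no point lies in a quadrant of opposite signs.

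The receptor itself was lower. NR3C1 had 63.4, 61.3 and 41.7 CPM in the dexamethasone libraries, against 77.8, 79.3 and 72.0 CPM in the vehicle libraries. The groups did not overlap, and replicate 3 was the lowest of all. The log2 fold change was -0.46 (SE 0.09, edgeR adjusted p = 0.000145), and -0.29 without replicate 3 (edgeR adjusted p = 0.0067). With only the 6 libraries fitted NR3C1 had -0.46 and was not called (edgeR adjusted p = 0.0962). Of 19 tested genes of the receptor complex, its coregulators and steroid handling, 4 rose and 7 fell, with a median log2 fold change of 0.11 against 0.00 over all genes. Without dexamethasone replicate 3 these counts were 3 and 6, and the median was -0.03. Those that fell were NR3C1, the HSP90 genes HSP90AA1 and HSP90AB1, the chaperone HSPA8 and the co-chaperones STIP1, PTGES3 and FKBP4. FKBP4, the immunophilin that links the receptor complex to nuclear transport, had 63.1, 70.5 and 58.4 CPM with dexamethasone, against 91.2, 91.1 and 93.5 CPM with vehicle. HSP90AB1 had 957.6, 993.7 and 921.8 CPM with dexamethasone, against 1203.0, 1189.1 and 1237.3 CPM with vehicle. Both genes were lower in every dexamethasone library, with log2 fold changes of -0.52 (SE 0.08) and -0.34 (SE 0.05). HSP90 and HSPA8 have near-identical processed copies, so reads may be split between loci. The 4 that rose were FKBP5, the coactivators NCOA3 and EP300, and ABCB1, the drug efflux pump that also exports glucocorticoids. Without vehicle replicate 1, 4 of the list were called lower in place of 7.

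Many textbook targets of the receptor rose. Of 36 tested targets, 15 were higher, 1 was lower and 20 did not pass, with a median log2 fold change of 0.53, and without replicate 3 these counts were 16 and 1. The list was chosen with these data already known, so its direction is a description. FKBP5, the immunophilin that lowers the receptor's affinity for hormone, had 78.5, 75.8 and 80.5 CPM with dexamethasone, against 33.6, 34.7 and 31.9 CPM with vehicle. TSC22D3, which encodes the anti-inflammatory leucine zipper protein GILZ, had 29.2, 33.6 and 35.8 CPM with dexamethasone, against 3.88, 3.54 and 4.45 CPM with vehicle. KLF9, a zinc-finger transcription factor, had 10.5, 9.79 and 9.32 CPM with dexamethasone, against 4.56, 3.74 and 2.63 CPM with vehicle. For all 3 genes the groups were far apart and replicate 3 lay with the other dexamethasone libraries. The log2 fold changes were 1.23 for FKBP5 (SE 0.13, edgeR adjusted p = 6.6e-09), 3.05 for TSC22D3 (SE 0.26, edgeR adjusted p = 6.06e-10) and 1.45 for KLF9 (SE 0.17, edgeR adjusted p = 1.37e-08). CRISPLD2, a secreted cysteine-rich protein, IRS2, an adaptor of the insulin receptor, and IP6K3, an inositol hexakisphosphate kinase, also passed, with log2 fold changes of 2.79 (SE 0.18), 1.29 (SE 0.12) and 2.93 (SE 0.30). The target that fell was ANXA1, the phospholipid-binding mediator of glucocorticoid action in leukocytes, at 72.4, 72.9 and 68.2 CPM with dexamethasone, against 119.2, 100 and 121.0 CPM with vehicle.

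Several targets that respond early in other systems were not called. DUSP1, the phosphatase that switches off MAP kinases, had 173.2, 173.5 and 235.0 CPM with dexamethasone, against 77.3, 89.7 and 184.7 CPM with vehicle. Vehicle replicate 3 lay inside the dexamethasone range, and the log2 fold change of 0.72 (SE 0.34) did not pass (edgeR adjusted p = 0.169). Without vehicle replicate 3 it was 1.21 (edgeR adjusted p = 0.0246). SGK1, a kinase that regulates sodium transport, had 29.7, 29.5 and 46.1 CPM with dexamethasone, against 28.2, 28.9 and 41.7 CPM with vehicle. Its log2 fold change was 0.09 with a 95% interval of -0.39 to 0.57, and in both groups replicate 3 was the highest.

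The promoters of the responding genes were searched for the receptor's binding letters, which are shown for 3 genes that hold a half-site, a known target, a large rise and a large fall. The window is 250 bases before to 50 after the RefSeq start on GRCh38.p14, and the half-site AGAACA was searched on both strands. A half-site occurred in 14.9% of 27305 promoters, in 8.73% of the 10987 promoters of genes tested, in 5.85% of those of genes called higher and in 11.9% of those of genes called lower. In genes changed at least 2-fold it was 12.4% of the 145 higher and 13.8% of the 130 lower. Of 118 named genes 88 had a promoter in the table, and 11 of these held a half-site, among them DOCK4, another of the large falls. The sequences read 5′ to 3′ on the gene's strand, which is the minus strand for all 3, with the half-site in capitals (TGTTCT where it lies on the other strand). FKBP5 is at chr6:35728534-35728833, IP6K3 at chr6:33746856-33747155 and KRTAP2-3, a gene that fell, at chr17:41060065-41060364.
FKBP5: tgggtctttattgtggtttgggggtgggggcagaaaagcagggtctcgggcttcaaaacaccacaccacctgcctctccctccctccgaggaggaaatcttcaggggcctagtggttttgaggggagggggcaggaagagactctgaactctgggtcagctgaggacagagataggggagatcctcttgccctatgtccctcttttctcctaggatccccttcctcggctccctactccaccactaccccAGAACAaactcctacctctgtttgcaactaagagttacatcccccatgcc
IP6K3: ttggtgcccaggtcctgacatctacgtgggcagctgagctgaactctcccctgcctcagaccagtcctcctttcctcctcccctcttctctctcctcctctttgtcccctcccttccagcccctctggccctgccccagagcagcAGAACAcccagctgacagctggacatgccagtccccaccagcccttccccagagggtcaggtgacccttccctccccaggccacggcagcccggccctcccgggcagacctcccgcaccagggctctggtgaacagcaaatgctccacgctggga
KRTAP2-3: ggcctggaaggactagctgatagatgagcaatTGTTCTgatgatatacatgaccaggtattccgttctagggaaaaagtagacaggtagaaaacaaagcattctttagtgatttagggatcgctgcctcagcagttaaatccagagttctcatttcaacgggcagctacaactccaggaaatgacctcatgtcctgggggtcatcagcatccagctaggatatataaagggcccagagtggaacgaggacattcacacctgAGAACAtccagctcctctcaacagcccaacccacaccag
A match is a description of letters, not of binding, and TSC22D3, PER1 and KLF9 had none in this window. The best studied receptor sites of FKBP5 lie in its introns, outside the window.

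The largest rises reached beyond the known targets. ADPRHL1, an ADP-ribosylhydrolase-like protein best known from heart muscle (chr13:113399610-113453524 on GRCh38), had 14.1, 14.2 and 23.5 CPM with dexamethasone, against 0.506, 1.08 and 1.47 CPM with vehicle, a 16.2-fold change (log2 4.02, SE 0.31). NID2, which encodes nidogen-2, a linker of laminin and collagen IV in basement membranes (chr14:52004803-52069228 on GRCh38), had 28.1, 28.6 and 24.5 CPM with dexamethasone, against 2.36, 3.15 and 2.55 CPM with vehicle, a 10.1-fold change (log2 3.33, SE 0.15). ABCA8, a lipid transporter, had 85.3, 85.6 and 63.8 CPM with dexamethasone, against 12.8, 11.9 and 11.8 CPM with vehicle. The groups did not overlap for any of the 3, and for ADPRHL1 replicate 3 stood above the other dexamethasone libraries. FAT4, an atypical cadherin, had 46.0, 46.2 and 29.4 CPM with dexamethasone, against 8.78, 9.84 and 7.81 CPM with vehicle, with replicate 3 the lowest of its group. The long non-coding RNA CERNA2 and SLC16A12, a creatine transporter of the monocarboxylate family, rose by 2.25 (SE 0.17) and 2.09 (SE 0.23) on the log2 scale. For ABCA8, FAT4, CERNA2 and SLC16A12 the dexamethasone library with the lowest level was replicate 3, and for ADPRHL1, PER1 and IP6K3 it was the highest. The 10 largest rises, taken where log2 CPM averaged 1 or more over the 6 libraries, all stayed past the threshold without it and vehicle replicate 1.

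**Figure D3:**
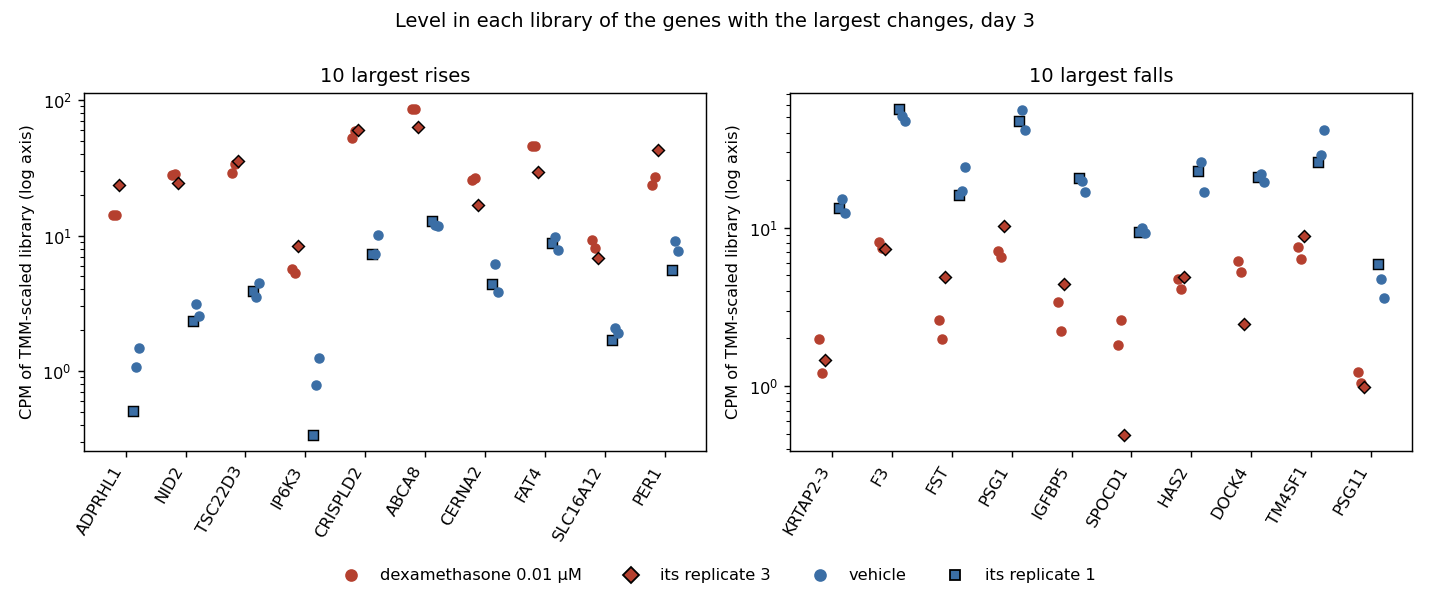
Level in each library of the genes with the 10 largest rises (left) and 10 largest falls (right) among those with a mean log2 CPM of 1 or more over the 6 libraries, as CPM of the TMM-scaled library on a log axis. Red marks are the dexamethasone libraries, with a diamond for replicate 3, and blue marks the vehicle libraries, with a square for replicate 1; red and blue do not overlap for any gene, since the choice of genes required it.

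The largest falls at the same minimum level held secreted and surface proteins; below it, DCDC2 and RGS4 fell by 3.52 and 2.76 on the log2 scale. F3, which encodes tissue factor, the starter of blood coagulation, had 8.1, 7.5 and 7.36 CPM with dexamethasone, against 56.2, 50.9 and 47.5 CPM with vehicle, 6.72-fold lower (log2 fold change -2.75, SE 0.16). FST, which encodes the activin-binding protein follistatin, had 2.62, 1.98 and 4.91 CPM with dexamethasone, against 16.2, 17 and 24.3 CPM with vehicle. IGFBP5, a binding protein of insulin-like growth factors, had 3.38, 2.24 and 4.42 CPM with dexamethasone, against 20.6, 19.9 and 16.9 CPM with vehicle. In FST and IGFBP5 replicate 3 was the highest dexamethasone library and still under every vehicle library. TM4SF1, a tetraspan membrane protein, DOCK4, an activator of Rac GTPases, and SPOCD1 fell by 2.10 (SE 0.17), 2.13 (SE 0.18) and 2.42 (SE 0.24) on the log2 scale. The pregnancy-specific glycoprotein genes, secreted relatives of the CEACAM family known from placenta, and 2 keratin-associated genes fell together: 12 of 14 tested members of the list were lower and none higher, with a median of -2.0, and the same 12 and 0 counts came without replicate 3 and without both doubtful libraries. PSG1 had 7.11, 6.51 and 10.3 CPM with dexamethasone, against 47.4, 55.6 and 41.7 CPM with vehicle. KRTAP2-3 had 1.98, 1.2 and 1.47 CPM with dexamethasone, against 13.3, 15.2 and 12.4 CPM with vehicle, 8.73-fold lower. Members of both families are near-identical in sequence, so reads may be shared among them and the 12 are not 12 separate measurements.

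Matrix genes moved in both directions, with more rises in the basement membrane and microfibril list. Of 25 basement membrane and microfibril genes tested, 12 were higher and 2 lower with a median of 0.73, and of 29 collagen and collagen-processing genes 10 were higher and 2 lower with a median of 0.12. FBN1, the microfibril protein fibrillin-1, had 59.9, 59.2 and 69.2 CPM with dexamethasone, against 24.5, 24.0 and 21.2 CPM with vehicle. COL5A1, a chain of the fibril-nucleating collagen V, had 158.9, 150.1 and 179.1 CPM with dexamethasone, against 74.3, 81.3 and 75.5 CPM with vehicle. LTBP2, which associates with fibrillin microfibrils, rose by 1.10 (SE 0.13) on the log2 scale. The 2 that fell were the laminin chains LAMB1 and LAMB3, and the 2 collagens that fell were COL1A2 and COL13A1. Without replicate 3 the basement membrane counts were 12 and 2, and the collagen counts 8 and 3; without dexamethasone replicate 1, 1 basement membrane gene was lower.

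In the matricellular list 1 of 14 tested genes rose and 6 fell, with 2 rises without dexamethasone replicate 2. TGFBI, a collagen-binding adhesion protein named for its induction by TGF-beta, had 40.8, 43.2 and 44.2 CPM with dexamethasone, against 137.8, 164.6 and 160.7 CPM with vehicle, a log2 fold change of -1.85 (SE 0.10, edgeR adjusted p = 2.77e-18). THBS2, an anti-angiogenic thrombospondin, and VCAN, a hyaluronan-binding proteoglycan, had log2 fold changes of -0.78 (SE 0.08) and -1.08 (SE 0.14). The other 3 that fell were TNC, SPARC and SRPX2. The gene that rose was DCN, which encodes decorin, at 1.81, 2.08 and 0.491 CPM with dexamethasone, against 0, 0.197 and 0.0863 CPM with vehicle; the value in replicate 3 is 1 count.

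Of 10 hyaluronan genes tested, 2 rose and 4 fell. HAS2, the main hyaluronan synthase of mesenchymal cells, had 4.78, 4.11 and 4.91 CPM with dexamethasone, against 23.0, 26.0 and 16.8 CPM with vehicle, 4.77-fold lower. CD44, the hyaluronan receptor, had 30.6, 28.4 and 41.7 CPM with dexamethasone, against 78.2, 79.1 and 66.5 CPM with vehicle. HAS3 and VCAN fell too, and CEMIP2 and HAPLN3 rose; without replicate 3 HAPLN3 was not called (edgeR adjusted p = 0.0735), and 1 gene of the list was higher also without dexamethasone replicate 2 or vehicle replicate 1. Among 21 proteases and inhibitors, 2 rose and 6 fell, with 1 rise without vehicle replicate 1 or 2. ADAM10, the sheddase that cuts many surface proteins, had 147.9, 146.5 and 142.3 CPM with dexamethasone, against 72.1, 76.2 and 75.1 CPM with vehicle. ADAMTS6 fell 3.07-fold and ADAM19 1.83-fold.

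Coagulation and fibrinolysis genes were mostly lower, with 1 of 15 tested higher and 8 lower. Without dexamethasone replicate 3 there were 2 rises and 8 falls, and without vehicle replicate 3 also 2 rises. SERPINE2, which encodes protease nexin 1, had 5.01, 4.95 and 5.89 CPM with dexamethasone, against 15.4, 15 and 16.5 CPM with vehicle. Of 23 genes of the YAP and SRF response, 1 rose and 6 fell, with 2 rises without dexamethasone replicate 3 or vehicle replicate 2 or 3. Those that fell included CNN1, a smooth muscle calponin, and MYOCD, the SRF coactivator myocardin, with log2 fold changes of -0.62 (SE 0.08) and -1.51 (SE 0.19). ANKRD1, a target of YAP in other cells, was the 1 that rose, at 110.1, 113.2 and 101.5 CPM with dexamethasone, against 64.8, 64.9 and 69.6 CPM with vehicle.

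Growth factor and activin signalling genes moved in both directions. Of 26 TGF-beta and activin genes tested, 5 rose and 5 fell. INHBA, the activin A subunit, had 15.1, 13.2 and 13.2 CPM with dexamethasone, against 33.9, 33.9 and 28.8 CPM with vehicle. FSTL3, a follistatin relative that binds activin, had 74.3, 78.6 and 87.3 CPM with dexamethasone, against 40.5, 40.1 and 43.6 CPM with vehicle. Thus follistatin and its relative moved in opposite directions in all 3 libraries. Without replicate 3, or without vehicle replicate 1 or 2, 3 genes of this list were higher in place of 5. Of 27 growth factor and receptor genes, 2 rose and 9 fell. Without dexamethasone replicate 3 these counts were 2 and 6, and they were the same without vehicle replicate 1 as well. ERBB3 and its ligand NRG1 were both among those that fell, with log2 fold changes of -0.99 (SE 0.12) and -0.96 (SE 0.09), and AXL, a receptor tyrosine kinase of the TAM family, fell by 0.47 (SE 0.07). The 2 that rose were PDGFB and its receptor PDGFRB. In the insulin-like growth factor axis 5 of 15 rose and 3 fell, with 6 and 2 without dexamethasone replicate 3. IGFBP3 had 28.3, 29.3 and 30.4 CPM with dexamethasone, against 53.9, 53.1 and 58.8 CPM with vehicle. Of 14 integrins 5 rose and 4 fell, with 6 and 4 without dexamethasone replicate 3 and 5 and 2 without vehicle replicate 1 as well. ITGB3, the beta chain of the vitronectin receptor, had 10.5, 8.12 and 4.42 CPM with dexamethasone, against 3.38, 3.25 and 3.11 CPM with vehicle.

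Feedback and early response genes gave more falls than rises at 0.01 µM, as did all genes tested (6.15% higher and 7.84% lower). Of 21 MAP kinase feedback genes 1 rose and 5 fell, and of 24 immediate early genes 1 rose and 4 fell. Their median log2 fold changes were -0.19 and -0.04, and -0.18 and -0.43 without dexamethasone replicate 3. At 1 µM the feedback list also gave 1 rise and 5 falls. The early gene list gave 9 rises and 2 falls at 1 µM, with a median of 0.39. No gene of either list was called for the difference between doses. DUSP4, a nuclear MAP kinase phosphatase, had 3.96, 3.85 and 4.91 CPM with dexamethasone, against 12.7, 11.8 and 20.5 CPM with vehicle. RGS4, a regulator of G protein signalling, had 0.874, 0.781 and 0 CPM with dexamethasone, against 4.39, 3.44 and 5.83 CPM with vehicle. FOSL1, an AP-1 subunit, had 21, 18.6 and 23.5 CPM with dexamethasone, against 51.2, 55.0 and 48.6 CPM with vehicle. The other early genes that fell were MYC, KLF4 and MAFF. SPRY1, a MAP kinase inhibitor chosen here after its values were seen, was the feedback gene that rose, by 0.94 (SE 0.32), and it was not called without any single one of the dexamethasone libraries or without vehicle replicate 1. Without dexamethasone replicate 3 the rise of the list was DUSP16, a MAP kinase phosphatase, and the falls numbered 7. FOSL2 was the early gene that rose, by 0.27 (SE 0.08) on the log2 scale, and without replicate 3 it was not called (edgeR adjusted p = 0.176) whereas the falls became 6. Without vehicle replicate 3 the early genes gave 2 falls and 2 rises, so their falls no longer outnumbered their rises. The early gene rises were 2 without dexamethasone replicate 2 or vehicle replicate 3 and none without vehicle replicate 1 or 2, and the feedback rises were 2 without vehicle replicate 3. The 18 clock genes gave 2 rises, PER1 and NPAS2, and 3 falls, and 1 rise without replicate 3 or without vehicle replicate 2 or 3. PER1, the period gene with the best known receptor site, had 23.8, 27.1 and 42.7 CPM with dexamethasone, against 5.57, 9.15 and 7.73 CPM with vehicle. The repressors CRY1 and NR1D2, and PER3, fell, by 0.39, 0.69 and 0.73 on the log2 scale.

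Inflammatory genes also moved in both directions. Of 24 cytokine and NF-kB genes tested, 6 rose and 3 fell. NFKBIA, the inhibitor of NF-kB, had 21, 17.4 and 19.1 CPM with dexamethasone, against 9.45, 8.26 and 9.19 CPM with vehicle. IL6ST, the shared receptor chain gp130, had 289.9, 287.5 and 207.5 CPM with dexamethasone, against 159.0, 159.2 and 142.7 CPM with vehicle. The cytokine IL11, which signals through gp130, had 6.0, 5.16 and 9.81 CPM with dexamethasone, against 20.4, 19.5 and 37.6 CPM with vehicle. The other falls were IL1B, with 0 counts in every dexamethasone library and under 0.5 CPM in every vehicle library, and PTX3, not called without replicate 3 (edgeR adjusted p = 0.293). Among the interferon response, 7 of 29 tested genes rose and no gene fell; the rises numbered 6 without replicate 3, 3 without vehicle replicate 1 and 1 without both. The gene called without both was STAT2, a signal transducer of type I interferon, at 48.4, 48.5 and 51.0 CPM with dexamethasone, against 35.3, 33.8 and 37.6 CPM with vehicle. IFIT2 had 3.38, 3.44 and 4.42 CPM with dexamethasone, against 0.844, 1.77 and 2.2 CPM with vehicle, with vehicle replicate 1 the lowest.

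**Figure D4:**
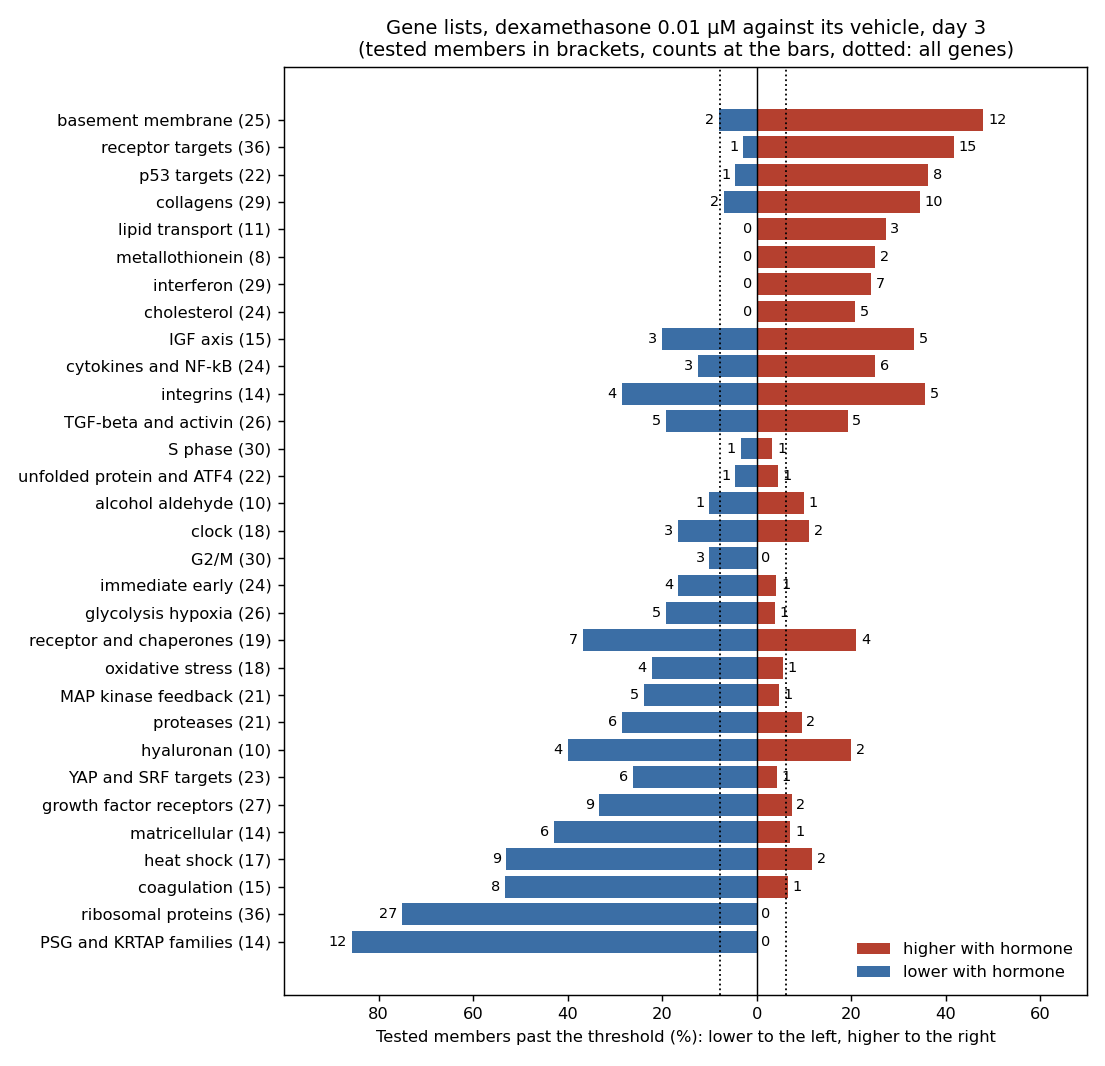
Percent of the tested members of each gene list past the threshold, higher with dexamethasone to the right (red) and lower to the left (blue), with the counts at the bars and the number tested in brackets. Dotted lines are the shares over all 16816 genes, 6.15% higher and 7.84% lower; the basement membrane list reaches furthest to the right, 12 of 25, and the PSG and KRTAP list furthest to the left, 12 of 14.

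Stress, metabolic and housekeeping lists showed small shifts. Of 22 p53 targets 8 rose and 1 fell, and without replicate 3 the counts were 6 and 0, with no fall either without dexamethasone replicate 1 or vehicle replicate 3. CDKN1A, the cell cycle inhibitor p21, had 73.1, 74.6 and 86.3 CPM with dexamethasone, against 45.6, 54.3 and 56.1 CPM with vehicle. MDM2, the ubiquitin ligase of p53, and DDB2, a DNA damage sensor, rose by 0.50 (SE 0.09) and 0.61 (SE 0.10) on the log2 scale. The metallothioneins MT2A and MT1E, metal-binding proteins, were the 2 of 8 that changed, and MT2A had 229.2, 227.5 and 229.6 CPM with dexamethasone, against 143.5, 140.3 and 149.3 CPM with vehicle. Metallothionein genes are close copies, and reads may be shared among them. Of 17 heat shock genes 2 rose and 9 fell, with 2 and 7 without replicate 3 and 2 and 5 without both mostly ribosomal libraries. The mitochondrial chaperonin HSPD1 had 235.0, 223.6 and 211.9 CPM with dexamethasone, against 337.0, 302.5 and 301.1 CPM with vehicle, and HSPH1 fell by 0.59 (SE 0.10). The small heat shock protein CRYAB and the co-chaperone DNAJB4 rose. Of 18 oxidative stress genes 1 rose and 4 fell, among them TXNRD1, PRDX1 and FTL, and the rise, FTH1, was not called without replicate 3 (edgeR adjusted p = 0.0751), while 2 rose without dexamethasone replicate 1. Of 24 cholesterol genes 5 rose and none fell. Without replicate 3, or without vehicle replicate 1, the rises numbered 2, and without vehicle replicate 2 they numbered 3. They numbered 1 without both mostly ribosomal libraries and 0 with only the 6 libraries fitted.

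Cytosolic ribosomal proteins were lower by a small amount in most members. Of 36 tested, 27 fell and none rose, with a median log2 fold change of -0.30 and a range from -0.53 to -0.11. RPL4 had 657.7, 670.2 and 583.3 CPM with dexamethasone, against 782.1, 773.6 and 866.2 CPM with vehicle. RPL18 had 166.6, 180.3 and 171.2 CPM with dexamethasone, against 239.2, 221.2 and 239.1 CPM with vehicle. Without replicate 3, 23 members were lower, while 17 were lower without dexamethasone replicate 1, 17 without vehicle replicate 1 and 15 without the 2 mostly ribosomal libraries. These genes have many processed copies that can share reads. The 13 mitochondrially encoded genes gave no call, and their direction rested on replicate 3. Their mean log2 CPM was 5.90, 5.29 and 7.65 in dexamethasone replicates 1, 2 and 3 and 6.36, 6.37 and 5.73 in vehicle replicates 1, 2 and 3. The median log2 fold change was 0.50 with replicate 3 and -0.62 without it. Of 30 S phase genes 1 rose (GINS1) and 1 fell (RFC2). Without dexamethasone replicate 1 there were 2 rises, without replicate 2 there were 2 rises and 2 falls, and without replicate 3 no fall. Of 30 G2/M genes none rose and 3 fell (AURKA, ECT2 and NUF2), of which 1 was called without replicate 3, 5 without vehicle replicate 3 and none without both mostly ribosomal libraries.

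Protein-coding genes carried most of the calls. Of 12642 protein-coding genes tested, 946 rose and 1081 fell (16% called), and of 4174 genes of other types 88 rose and 238 fell (7.81% called). Without replicate 3 the other types had 62 rises and 196 falls.

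To see whether the dose mattered, the vehicle-corrected effect at 1 µM was set against that at 0.01 µM. At 1 µM 3804 genes were called (22.6%), 1739 higher (10.3%) and 2065 lower (12.3%), and 1802 genes were called at both doses, which is 76.6% of the calls at 0.01 µM and 47.4% of those at 1 µM. All 1802 had the same direction, and the 2 comparisons share no library. Among them the median effect at 0.01 µM was 84.8% of the log2 effect at 1 µM, and 1311 (72.8%) had the larger effect at 1 µM. The 2002 genes called only at 1 µM and the 551 called only at 0.01 µM are outside this median. It therefore does not describe all responding genes. The difference between doses itself passed for 8 genes (0.0476%), whereas 1088 had an unadjusted p below 0.05. Its 95% interval lay within 1 log2 unit of 0 for 92.1% of the better measured genes.

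In 3 of the 8 genes (0.0178% of those tested) the 1 µM effect lay above that at 0.01 µM, and in 5 (0.0297%) below it. NID2 had 28.1, 28.6 and 24.5 CPM at 0.01 µM and 70.9, 65.8 and 76.5 CPM at 1 µM, against 2.36, 3.15 and 2.55 CPM and 2.77, 3.34 and 2.52 CPM in their vehicles. The difference of the log2 effects was 1.29 (SE 0.20, edgeR adjusted p = 0.000473). HAS2 had 4.78, 4.11 and 4.91 CPM at 0.01 µM and 1.69, 2.38 and 2.19 CPM at 1 µM, against 23.0, 26.0 and 16.8 CPM and 28.9, 22.2 and 20.4 CPM in their vehicles, a difference of -1.25 (SE 0.19, edgeR adjusted p = 0.000473). MAP3K7CL differed by -0.56 (SE 0.10), ALCAM, a cell adhesion molecule, by 0.52 (SE 0.10), and LPIN3, a phosphatidate phosphatase, by 0.82 (SE 0.17). PAPPA, a metalloprotease that cleaves IGF-binding proteins, had 21.3, 21.5 and 16.2 CPM at 0.01 µM and 11.4, 9.11 and 10.2 CPM at 1 µM, against 20.8, 22 and 14.9 CPM and 19.9, 19.8 and 18.1 CPM in their vehicles. It was thus within the vehicle range at the low dose and below it at the high dose. The last 2, ST6GAL2 and THBS2, differed by -0.79 (SE 0.16) and -0.52 (SE 0.11). When each of the 12 libraries was left out in turn, NID2, HAS2 and MAP3K7CL were called 12 times and ALCAM 10 times, but PAPPA 6 times and ST6GAL2, THBS2 and LPIN3 3 times each. The count of genes was 18 without dexamethasone 0.01 µM replicate 3. It was 4 without dexamethasone 1 µM replicate 2 or vehicle replicate 1 or 2 of that dose, and 5 without vehicle replicate 4 of that dose, dexamethasone 0.01 µM replicate 2 or vehicle replicate 3 of the low dose.

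Hydrocortisone at the same 0.01 µM gave no gene past the threshold (0%) against its own vehicle by edgeR (398 at an unadjusted p below 0.05, smallest adjusted p 0.192), the only tool run on that comparison. On day 3 this is the 1 pair of matched doses between the structural analogues. The same doses on day 6 were not compared with each other here. The difference between the vehicle-corrected effects, dexamethasone minus hydrocortisone, passed for 838 genes (4.98%), 348 higher (2.07%) and 490 lower (2.91%). TSC22D3 had 29.2, 33.6 and 35.8 CPM with dexamethasone, against 3.88, 3.54 and 4.45 CPM with its vehicle, and 4.18, 3.55 and 3.93 CPM with hydrocortisone, against 3.11, 3.86 and 3.86 CPM with its vehicle. FKBP5 had 27.6, 30.7 and 37.8 CPM with hydrocortisone, against 36, 35.3 and 32.8 CPM with its vehicle. The hydrocortisone libraries of both genes lay about their vehicle, and the differences of the log2 effects were 2.94 (95% interval 2.22 to 3.66, edgeR adjusted p = 1.45e-06) for TSC22D3 and 1.34 (0.97 to 1.71, edgeR adjusted p = 4.09e-06) for FKBP5. F3 and NID2 differed by -2.57 (-3.00 to -2.13) and 3.38 (2.98 to 3.79). Among the genes with the largest negative differences DCDC2, a microtubule-binding protein, had 0.816, 0.312 and 0 CPM with dexamethasone, against 5.23, 5.9 and 5.22 CPM with its vehicle. The small nucleolar RNA SNORD3A also differed, by -2.67 (SE 0.72), but its vehicle libraries ran from 833.5 to 4193.8 CPM and its own day 3 call was lost without vehicle replicate 3 (log2 fold change -0.87, edgeR adjusted p = 0.289). Not every gene separated the hormones: for SGK1 the difference was 0.04 with an interval of -0.64 to 0.71, and for NR3C1 -0.37 (SE 0.12, edgeR adjusted p = 0.0783). The 95% interval of the hydrocortisone effect lay within 1 log2 unit of 0 for 99.1% of the better measured genes, which bounds the effects this comparison could have missed.

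**Figure D5:**
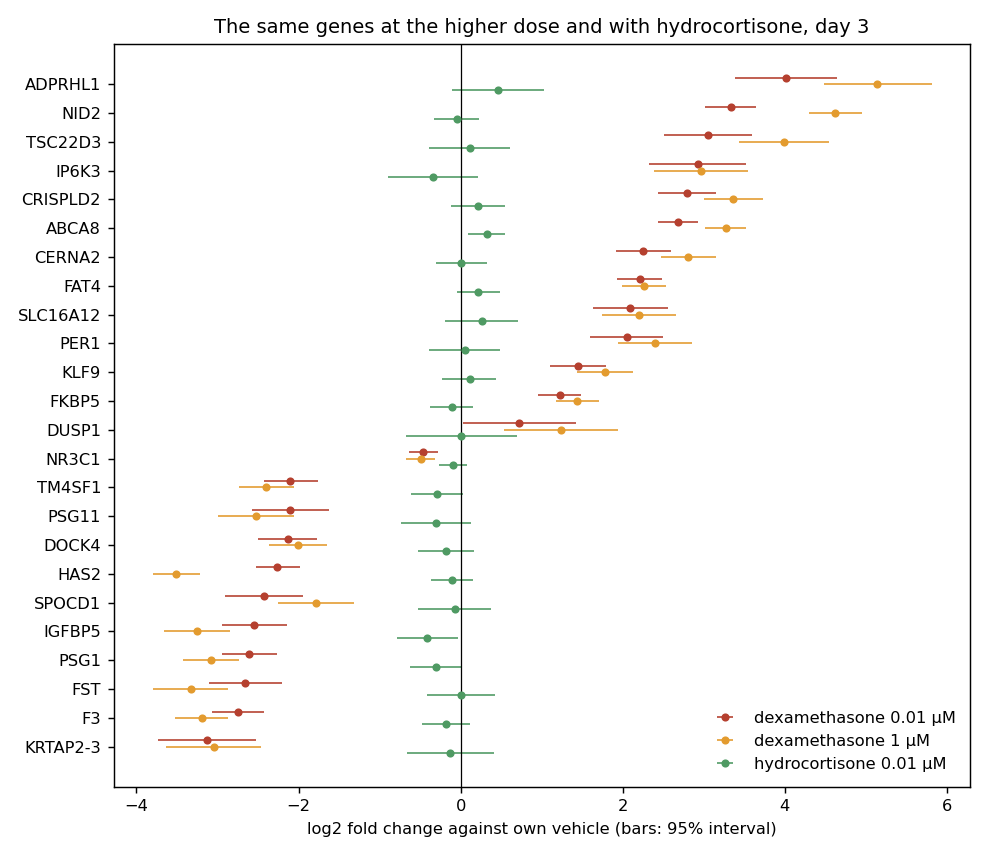
Log2 fold change against the own vehicle on day 3, with 95% intervals, of the 10 largest rises and 10 largest falls at a mean log2 CPM of 1 or more, and of KLF9, FKBP5, DUSP1 and NR3C1, for dexamethasone 0.01 µM (red), dexamethasone 1 µM (orange) and hydrocortisone 0.01 µM (green). The green point lies nearer to 0 than the red one for each gene plotted; NID2 and HAS2 show the widest gap between the doses.

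On day 6, after 3 days without hormone, 14 genes differed between dexamethasone 0.01 µM and the mean of the 4 vehicle libraries (0.0833%), 8 higher (0.0476%) and 6 lower (0.0357%). The day 6 flasks were seeded from the day 3 flasks, so the 2 days are not independent cultures. IGFBP5 had 14.6, 11.3 and 11.2 CPM after dexamethasone, against 25.2, 23.8, 29 and 30.6 CPM in the vehicle libraries, a log2 fold change of -1.12 (SE 0.18) where day 3 had -2.55. CRISPLD2 had 8.74, 14.4 and 10.7 CPM after dexamethasone, against 8.71, 7.1, 4.53 and 5.74 CPM in the vehicle libraries, a log2 fold change of 0.83 (SE 0.15) where day 3 had 2.79. NPTX1, a secreted neuronal pentraxin, had 34.8, 40.3 and 27.4 CPM after dexamethasone, against 26.9, 23.4, 18.5 and 21.7 CPM in the vehicle libraries. The groups did not overlap for any of these 3 genes, but for CRISPLD2 and NPTX1 the lowest dexamethasone library lay just above the highest vehicle library. PSG1, ABI3BP, INHBA and ADPRHL1 were the other genes with a symbol called on both days, and each kept its direction with a smaller log2 fold change (-0.81, -0.82, -0.49 and 1.42). The other 6 were not called on day 3. ABCG2, a drug efflux pump, and ZC3H11A had the largest of their day 6 log2 fold changes, 2.44 (SE 0.45) and 2.80 (SE 0.61), against -0.08 and 0.33 on day 3. ALDH6A1 had -0.50 on day 6 and 0.21 on day 3, DHRS2 1.02 and -0.14, TXNIP 1.46 and 0.87, and NIBAN1 -0.43 and -0.15. FKBP5, TSC22D3 and PER1 had day 6 log2 fold changes of 0.28, 0.43 and 0.35, and none passed. Of the genes called on day 3, 63.6% had the same sign on day 6, with a median size of 0.09. The day 6 count rested on 1 library: without dexamethasone day 6 replicate 2 no gene passed by edgeR (835 at an unadjusted p below 0.05), and no other tool was run without it.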

How the data were processed

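Total RNA of HMC3 flasks was made into libraries with a stranded total RNA kit and sequenced in pairs, per the labels' protocols. The authors deposited raw read counts per Ensembl gene for 43 libraries, not normalized, with the lanes of a library summed. FastQC, STAR, Subread, featureCounts and GRCh38 are named in the submitters' processing notes. For their versions and the strand setting, the sources used here give nothing, so overlapping and antisense genes are uncertain. The table holds 20052 genes, each with at least 50 counts in all. Symbols came from a name table (17623 genes) and GENCODE (32 genes), which also gave gene positions, and 2397 genes had none.

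Counts were tested with edgeR 4.0.16 in R 4.3.3 (TMM scaling, filterByExpr with a minimum count of 10 and total of 15, robust quasi-likelihood F test) in 1 fit of 43 libraries in 17 groups with 26 residual degrees of freedom, which estimates the spread from all groups. P-values were Benjamini-Hochberg adjusted over 16816 genes per comparison, with a threshold of 0.05. They measure only the spread between flasks of 1 cell line. The test was also run on simulated counts, drawn with the same rates for all libraries of a group and a fixed spread. Those counts hold no difference in ribosomal share within a group, so the check does not cover that feature of these libraries. CPM use the TMM-scaled library size; the marker levels use the non-ribosomal total instead. Ribosomal RNA was counted over 14 repeat genes. Better measured genes are the 11659 whose log2 CPM averaged 1 or more. Among the 6 libraries of the main comparison, none was found to be a repeat of another of its own group. Other pairs of libraries were not checked.

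Named genes were the 10 largest rises and 10 largest falls past the threshold with a symbol, no overlap between groups and a log2 CPM that averaged 1 or more over the 6 libraries, up to 3 per gene list, up to 4 per direction of each difference with that average over the libraries it compares, and FKBP5, TSC22D3, PER1, KLF9, DUSP1, SGK1 and NR3C1 (ZBTB16 was not analysed here); other names complete a count or were chosen after their values were seen. The members and the 38 lists were chosen with earlier results of these data known. Alternatives were DESeq2 1.42.0, other size factors and filters, removal of ribosomal RNA genes, a ribosomal covariate, other references, a replicate block and leaving out libraries. Promoters are from RefSeq. Some named genes are not reported here.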

Additional observations from a re-analysis of the deposited data

How the results depend on the processing

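The count of 2353 genes changed on day 3 was 1522 without all libraries over 75% ribosomal RNA, 1358 without dexamethasone replicate 3 and vehicle replicate 1, 713 when only the 6 libraries were fitted, with fewer samples to estimate the spread, and 3633 against all 12 vehicle libraries; leaving out 1 library at a time gave 1643 to 2351. DESeq2 gave 1661, and removing the ribosomal RNA genes 1866. The 8 genes that differed between doses were 14 by DESeq2 and 4 without the ribosomal RNA genes, and 4 to 18 when 1 library was left out. The difference between hormones gave 564 to 948 genes when 1 library was left out, against 838, and the day 6 count of 14 became 0 to 15 when 1 of the 3 dexamethasone libraries of that day was left out; the 4 vehicle libraries were not left out. The cause of these shifts was not tested.

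A replicate block gave 2388 genes on day 3, 8 for the dose, 801 for the hormone and 16 on day 6, and 396 with only the 6 libraries. With all libraries it brought DUSP1 (log2 fold change 0.80, edgeR adjusted p = 0.022) and TXNIP (0.87, edgeR adjusted p = 0.0409) past the threshold. Same-numbered dexamethasone and vehicle libraries had correlations of deviations of -0.0783, 0.00686 and -0.074 over 11670 genes. Differently numbered pairs ran from -0.161 to 0.153. These are deviations from means of 3 libraries, which cannot decide whether same-numbered flasks were paired. Of the 118 named genes, 107 kept their direction and side of the threshold without dexamethasone replicate 3, 101 also without vehicle replicate 1, and 112 by DESeq2. The number was lowest with only the 6 libraries fitted, 95, and 81 with a replicate block there. The others, 23 and 36 with the block, were weaker, apart from 1 stronger with the block. SGK1, PAPPA and DHRS2, none of them called on day 3, changed sign in some alternatives, with log2 fold changes there of -0.32 to -0.01 for SGK1, -0.12 to -0.02 for PAPPA and 0.13 and 0.28 for DHRS2; no called named gene did. Depth limits dexamethasone replicate 3 most, where 1 count is 0.491 CPM.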
